A study of Mus musculus with 8 samples.

Results

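Tmem164, Fbxo32, Xylt1, Dhrs3, Daam2, Angptl7, Abcd2 and Slc27a6 are 8 mouse genes whose messenger RNA was lower after R848 in wild-type (WT) macrophages and fell less, or hardly at all, in KAT8-deficient macrophages. They were chosen from the measured values themselves: a weaker or absent fall in KAT8-deficient cells, or a place among the most marked falls in WT cells. They are 8 of the 34745 genes in the count table, and all 8 were among the 14040 genes with enough counts to be tested. Because their R848 responses in both genotypes, and the difference between those responses, chose them, these are given as values with standard errors and without p-values.

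The cells were bone-marrow-derived macrophages (BMDM), primary cells grown from mouse bone marrow in M-CSF, the growth factor of macrophages, at 20 ng/ml. There were 4 groups of 2 libraries: KAT8-deficient cells (labelled KAT8-cKO) with R848, KAT8-deficient cells left untreated (UT), WT cells with R848, and WT cells left untreated. R848 was given at 100 ng/ml for 6 h. KAT8 is a histone H4 acetyltransferase, and R848, also named resiquimod, is a synthetic imidazoquinoline that activates mouse TLR7, which senses single-stranded RNA in endosomes. The labels used here do not state what drives the conditional knockout, nor the strain, age and number of the animals. Nor do they state that a group's 2 libraries had separate cultures or animals as their source, so p-values measure only the spread between libraries, which may be technical.

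Messenger RNA was counted per gene, and levels are given as CPM, counts scaled to a normalised library size of 1000000. Total counts ran from 18550977 to 21384532 per library, so that 3 counts, the floor of detection, correspond to 0.14 to 0.163 CPM. Kat8 stood at 9.94 and 10.4 CPM in KAT8-deficient R848 libraries, against 18.0 and 16.0 CPM in WT R848 libraries. Its untreated levels were 8.76 and 10.8 CPM in KAT8-deficient libraries and 17.0 and 17.9 CPM in WT libraries. The log2 difference was -0.74 (SE 0.12, edgeR adjusted p = 0.00553) under R848 and -0.84 (SE 0.13, edgeR adjusted p = 0.0113) untreated. Averaged over R848 and untreated libraries it was -0.79 (SE 0.089, edgeR adjusted p = 0.000695), called in 13 of 13 alternative analyses. The call under R848 was lost without WT R848 replicate 1 (edgeR adjusted p = 0.0526). Untreated, it was lost without KAT8-deficient replicate 1 (0.0881) or either WT replicate (0.0518 and 0.0589). All 10 macrophage markers listed were tested, and their summed level was 13000 to 13850 CPM in KAT8-deficient and 20130 to 21850 CPM in WT libraries. Without Lyz2, a lysozyme gene, the sums were 7800 to 8242 and 8733 to 9712 CPM. All 12 fibroblast and stromal markers were above the filter on low counts too. In bulk RNA, fewer cells of a type and less RNA per cell cannot be told apart.

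The 8 genes serve different tasks. Long and very long fatty acids are activated to acyl-CoA at membranes, moved into peroxisomes to be shortened, and built into phospholipids, and macrophages remodel these lipids when they are activated. Tmem164 encodes a membrane acyltransferase that, in human cells, places polyunsaturated fatty acids in ether phospholipids, lipids that feed ferroptosis. Slc27a6 encodes a fatty acid transport protein (FATP6) of the acyl-CoA synthetase family, and Abcd2 a peroxisomal transporter of very long fatty acids. Dhrs3 encodes an enzyme that reduces retinaldehyde to retinol and so limits retinoic acid. Xylt1 adds the xylose on which the glycosaminoglycan chains of proteoglycans are built. Angptl7 encodes a secreted angiopoietin-like protein known from the cornea and the trabecular meshwork of the eye. Daam2 encodes a formin, an actin-assembling protein of Wnt signalling, and Fbxo32 (atrogin-1) a ubiquitin ligase subunit best known as a FOXO target in wasting muscle.

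Promoter sequences were matched by symbol for 4 of the 8 genes, Tmem164, Dhrs3, Daam2 and Angptl7, in RefSeq's table for GRCm38.p6. They are shown because these genes share a response and their upstream sequences can be set side by side. Each is the 250 bases before the first RefSeq transcript start, 5′ to 3′ on the gene's strand, with matches to the searched motifs in capitals.
Tmem164: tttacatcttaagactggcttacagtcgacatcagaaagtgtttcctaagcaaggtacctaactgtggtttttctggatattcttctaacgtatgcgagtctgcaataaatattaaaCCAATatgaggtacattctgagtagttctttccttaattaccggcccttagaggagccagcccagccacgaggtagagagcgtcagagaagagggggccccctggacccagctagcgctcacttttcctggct
Dhrs3: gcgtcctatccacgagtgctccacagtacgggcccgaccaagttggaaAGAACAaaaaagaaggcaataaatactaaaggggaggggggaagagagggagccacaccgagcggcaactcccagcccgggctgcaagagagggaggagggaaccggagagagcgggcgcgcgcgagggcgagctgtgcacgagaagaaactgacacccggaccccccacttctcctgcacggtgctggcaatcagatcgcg
Daam2: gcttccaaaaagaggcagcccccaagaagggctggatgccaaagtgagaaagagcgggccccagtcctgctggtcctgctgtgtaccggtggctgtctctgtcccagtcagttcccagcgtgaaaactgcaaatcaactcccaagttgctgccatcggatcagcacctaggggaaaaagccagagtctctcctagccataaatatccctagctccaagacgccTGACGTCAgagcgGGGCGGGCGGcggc
Angptl7: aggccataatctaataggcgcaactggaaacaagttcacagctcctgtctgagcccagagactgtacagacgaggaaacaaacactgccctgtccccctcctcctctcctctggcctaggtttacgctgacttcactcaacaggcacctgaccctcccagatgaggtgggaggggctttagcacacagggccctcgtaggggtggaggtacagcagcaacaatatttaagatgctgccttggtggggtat
The windows lie at chrX:142680097-142680346 (plus strand) for Tmem164, chr4:144892577-144892826 (plus) for Dhrs3, chr17:49564338-49564587 (minus) for Daam2 and chr4:148500463-148500712 (minus) for Angptl7. The Tmem164 window ends before the first Tmem164 base in GENCODE, 142681406, the Daam2 window shares 6 bases with a GENCODE exon, and the other windows share 0.

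The 4 sequences were unlike in composition. G and C made up 46.4% of the Tmem164 window, 61.6% of Dhrs3, 58.4% of Daam2 and 54.4% of Angptl7, against a median of 52.4% over 32851 such windows of 27025 genes. CpG pairs numbered 7 in Tmem164, 19 in Dhrs3, 10 in Daam2 and 4 in Angptl7, against a median of 6. A second RefSeq start of Tmem164 lies within the GENCODE gene. The 250 bases before it held 78.4% G and C and 28 CpG pairs, more than 92.39% of all windows.

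Of 10 motifs searched on both strands, Tmem164 held a CCAAT box (CCAAT, in 33.85% of all windows) at 133 bases before the start. Dhrs3 held a glucocorticoid receptor half-site (AGAACA, in 16.08%) at 202 bases. Daam2 held a cyclic AMP response element (TGACGTCA, in 1.546%) at 27 bases and a pair of overlapping GC boxes (GGGCGG, in 32.74%) at 14 and 10 bases. Angptl7 held none of the 10. Also searched were a TATA box (TATAAA, in 12.37%), an AP-1 site (TGACTCA, in 4.463%), a forkhead site (GTAAACA, in 3.166%) and a nuclear receptor half-site (AGGTCA, in 14.02%). The last were an E-box (CACGTG, in 6.021%) and an NF-kB pattern of 10 letters (in 3.899%). Of the 4 printed windows, 0 held any of these. The letters of the NF-kB pattern are not given here, so its absence holds for the pattern searched and not for looser forms of the site. No motif was shared by these 4 windows, each before the first start. Before its second start Tmem164 held 3 GC boxes, a motif that Daam2 held too. Before other starts Dhrs3 held CCAAT boxes, a motif of the printed Tmem164 window. These matches describe letters only.

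Tmem164 (chromosome X, 142681406 to 142843494, plus strand, GRCm38) had the most lopsided response of the 8. It stood at 182 and 178 CPM in KAT8-deficient R848 libraries and at 183 and 195 CPM in KAT8-deficient untreated libraries. In WT cells it stood at 54.7 and 56.9 CPM with R848 and at 211 and 224 CPM untreated. The 2 WT R848 libraries were far below the other 6, which lay between 178 and 224 CPM. R848 left 95.3% of the untreated level in KAT8-deficient cells and 25.7% in WT cells, log2 changes of -0.07 (SE 0.063) and -1.96 (SE 0.066). In KAT8-deficient cells the means with and without R848 were closer to each other than the untreated replicates were.

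Slc27a6, the fatty acid transport gene, stood at 7.21 and 7.31 CPM in KAT8-deficient R848 libraries and at 10.1 and 10.7 CPM in KAT8-deficient untreated libraries, and at 6.19 and 6.18 CPM in WT R848 libraries and 16.5 and 20.1 CPM in WT untreated libraries. Both R848 groups ended near each other, and the untreated KAT8-deficient level was 56.8% of the untreated WT level. The log2 change with R848 was -0.52 (SE 0.13) in KAT8-deficient and -1.56 (SE 0.13) in WT cells. For Slc27a6 the genotypes thus differed more before R848, by -0.81 (SE 0.12), than under it, by 0.23 (SE 0.13).

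Abcd2 (chromosome 15, 91145871 to 91191799, minus strand) stood at 11.5 and 11.9 CPM in KAT8-deficient R848 and 18.1 and 15.7 CPM in KAT8-deficient untreated libraries. Its levels in WT libraries were 8.11 and 6.84 CPM with R848 and 23.7 and 19.4 CPM untreated. The 4 groups did not overlap and were in the order WT R848, KAT8-deficient R848, KAT8-deficient untreated, WT untreated, but the gap between KAT8-deficient untreated and WT untreated libraries was smaller than the gap between the replicates within either group. The log2 change was -0.53 (SE 0.14) in KAT8-deficient and -1.53 (SE 0.14) in WT cells. Abcd2 kept the largest share of the WT response among the 8, 34.9% on the log2 scale.

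Dhrs3, the retinaldehyde reductase gene (chromosome 4, 144892827 to 144928209, plus strand), had the smallest WT response. It stood at 157 and 149 CPM in KAT8-deficient R848 and 186 and 185 CPM in KAT8-deficient untreated libraries, and at 96.3 and 98.0 CPM in WT R848 and 180 and 186 CPM in WT untreated libraries. Untreated levels of the genotypes overlapped, while every R848 library was below every untreated one of either genotype. The log2 change was -0.28 (SE 0.057) in KAT8-deficient and -0.91 (SE 0.058) in WT cells.

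Xylt1 (chromosome 7, 117380979 to 117673580, plus strand) stood at 104 and 104 CPM in KAT8-deficient R848 and 121 and 125 CPM in KAT8-deficient untreated libraries. WT libraries had 64.6 and 70.4 CPM with R848 and 132 and 141 CPM untreated. The R848 libraries were below the untreated ones in both genotypes, by a log2 change of -0.25 (SE 0.065) in KAT8-deficient and -1.01 (SE 0.066) in WT cells.

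Angptl7, the secreted factor (chromosome 4, 148495183 to 148500460, minus strand), had the largest WT change and the noisiest values. KAT8-deficient libraries had 28.1 and 15.4 CPM with R848, a 1.83-fold gap between replicates, and 34.4 and 28.1 CPM untreated. WT libraries had 5.39 and 5.62 CPM with R848 and 28.8 and 22.5 CPM untreated. The KAT8-deficient groups overlapped each other, as did the untreated groups, and the WT R848 libraries stood alone below. The log2 change was -0.52 (SE 0.25) in KAT8-deficient and -2.22 (SE 0.28) in WT cells. Angptl7 lies within the span of Mtor on the opposite strand, with 0 shared exon bases. Mtor was at 68.0 to 86.1 CPM in all libraries (WT log2 change -0.13, SE 0.086, edgeR adjusted p = 0.378).

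Daam2, the formin gene (chromosome 17, 49456022 to 49564343, minus strand), was high in KAT8-deficient cells in both states. It stood at 23.1 and 18.2 CPM in KAT8-deficient R848 libraries and 28.2 and 29.3 CPM in KAT8-deficient untreated libraries. WT R848 libraries had 4.96 and 5.87 CPM and WT untreated libraries 17.6 and 17.4 CPM. Even with R848, both KAT8-deficient libraries were above the untreated WT libraries. The log2 change was -0.48 (SE 0.13) in KAT8-deficient and -1.69 (SE 0.15) in WT cells.

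Fbxo32, the ubiquitin ligase gene (chromosome 15, 58175879 to 58214932, minus strand), stood at 79.4 and 68.6 CPM in KAT8-deficient R848 and 92.1 and 93.2 CPM in KAT8-deficient untreated libraries. WT libraries had 36.4 and 35.2 CPM with R848 and 111 and 110.0 CPM untreated. The groups did not overlap, and their order was that of Abcd2. The log2 change was -0.32 (SE 0.076) in KAT8-deficient and -1.63 (SE 0.079) in WT cells. An antisense model that shares 186 exon bases with Fbxo32 held at most 0.16 CPM in any library.

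**Figure D1:**
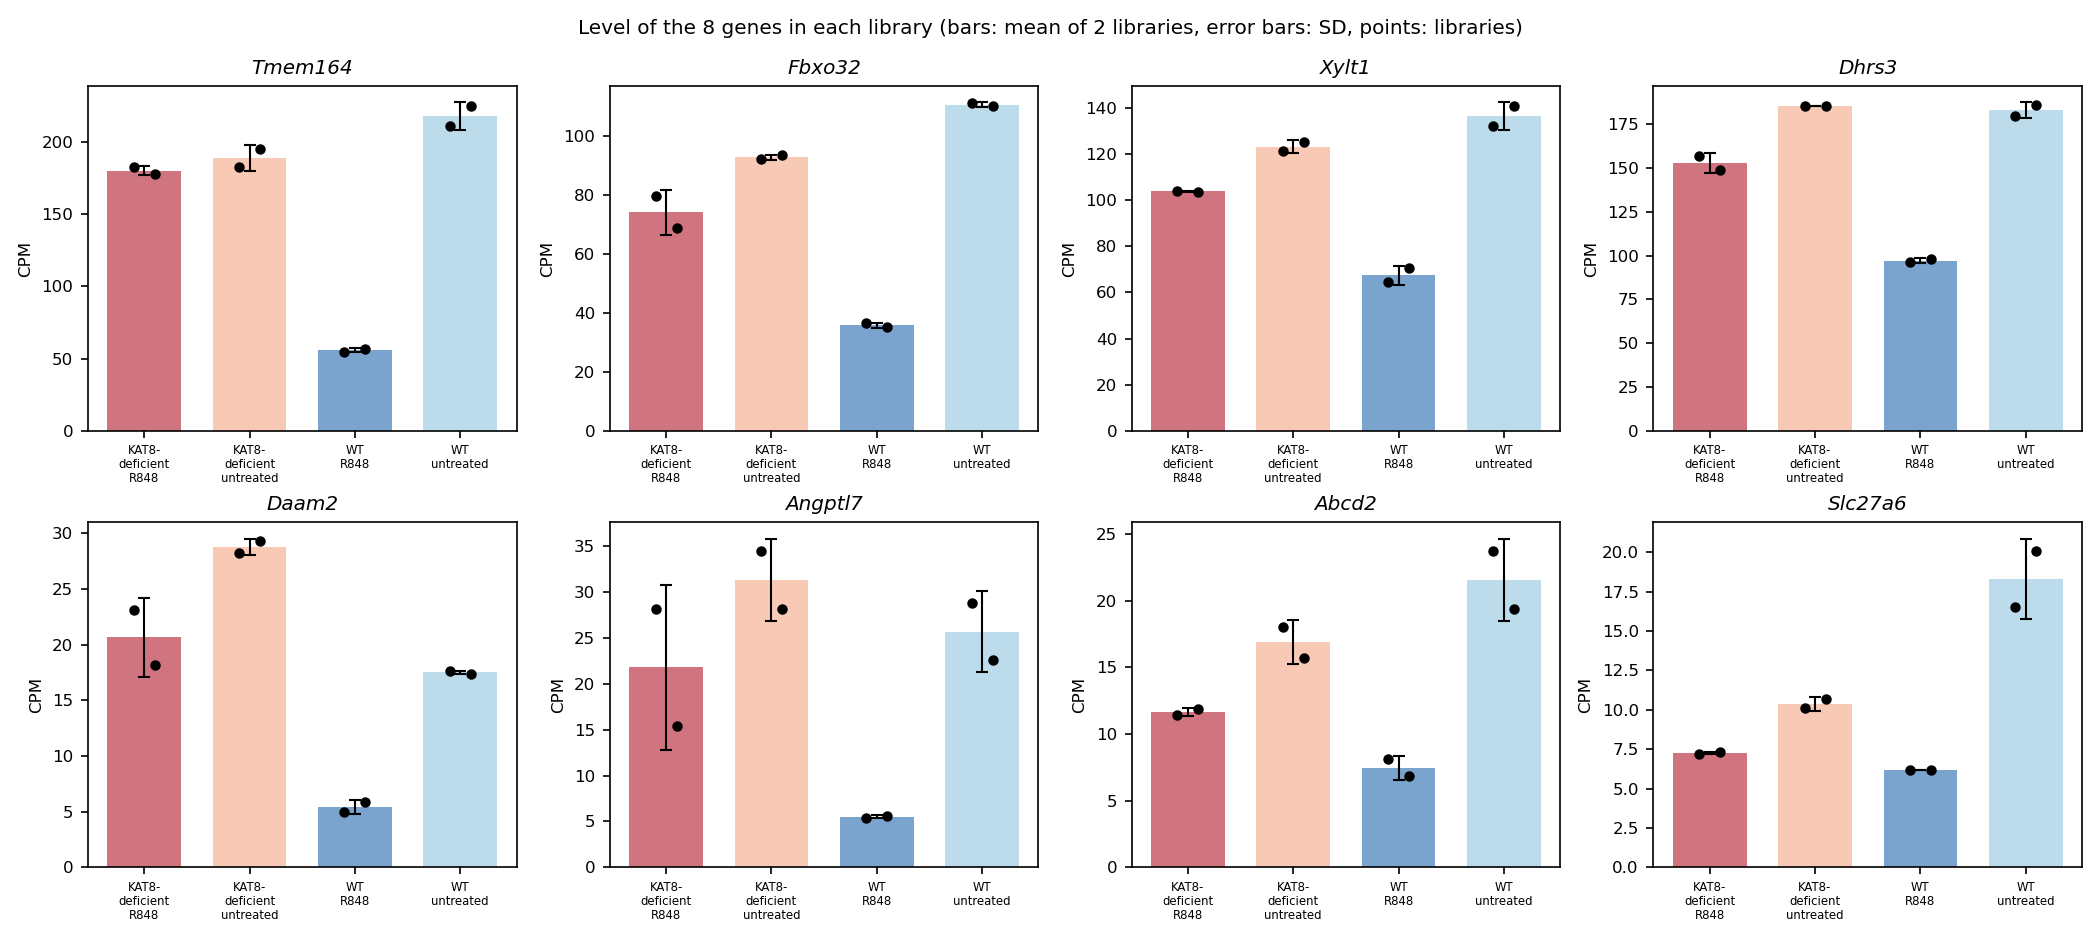
Level of each of the 8 genes in CPM (vertical axes, each from 0) in KAT8-deficient R848, KAT8-deficient untreated, WT R848 and WT untreated cells. Bars are means of 2 libraries, error bars are SD and points are libraries; the WT R848 bar is the lowest in every panel, and for Slc27a6 the KAT8-deficient R848 bar, at 7.26 CPM, is close to it, at 6.18 CPM.

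Over the 8 genes the WT change ran from -2.22 to -0.91 (median -1.59) and the KAT8-deficient change from -0.53 to -0.07 (median -0.40). In WT cells edgeR called all 8 lower at the adjusted threshold of 0.05, where 6.7% of tested genes were called lower. In KAT8-deficient cells edgeR called 0 of the 8 lower, where 0.135% of tested genes were, although 6 were lower at an unadjusted p under 0.05. DESeq2 likewise called 0. Without KAT8-deficient R848 replicate 1, edgeR called Fbxo32 and Angptl7 lower, 1 of 13 alternatives for each. The difference between the responses (KAT8-deficient minus WT) was called higher for Tmem164, at 1.89 (SE 0.091), Fbxo32, at 1.3 (SE 0.11), Xylt1, at 0.77 (SE 0.092), and Dhrs3, at 0.63 (SE 0.081), where 0.057% of tested genes were. For Angptl7 it was 1.70 (SE 0.37), for Daam2 1.21 (SE 0.19), for Slc27a6 1.05 (SE 0.18) and for Abcd2 1.00 (SE 0.20). These 4 were not called by edgeR, but DESeq2 called all 8 higher, as did edgeR at an unadjusted p under 0.05. The rule used all 3 of these comparisons, so the counts only restate the choice. R848 and untreated libraries did not overlap for 7 of the 8 in KAT8-deficient cells (lower in 23.0% of tested genes) and for all 8 in WT cells (lower in 28.3%).

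The smaller KAT8-deficient change was shared widely. Among the 941 genes called lower in WT cells, the median log2 change was -0.18 in KAT8-deficient and -0.52 in WT cells. The KAT8-deficient change was a median 33.7% of the WT change (quartiles 19.2% and 47.4%) over these genes. They were chosen by the WT call alone, which tends to enlarge their WT change and to lower this share. Over the 113 that fell by at least 1 on the log2 scale in WT cells it was a median 28.8%. The 8 genes had a median of 26.2%, near this background, so a reduced fall was not particular to them. Fbxo32 at 19.9%, Angptl7 at 23.5%, Xylt1 at 24.2%, Daam2 at 28.3%, Dhrs3 at 30.5%, Slc27a6 at 33.1% and Abcd2 at 34.9% lay within the quartiles. Without KAT8-deficient R848 replicate 2, Angptl7 was at 6.89%, Fbxo32 at 13.7% and Daam2 at 18.6%, and without replicate 1 Angptl7 was at 46.1%. These shares thus moved with single libraries. The quartiles are those of all 8 libraries, so the place of these 3 genes without a library was not tested. Tmem164 was apart from the other 7 at 3.53% (0.745% to 6.06% over the 13 alternatives), with 16 of the 113 genes and 93 of the 941 below it. Among the 975 genes called higher in WT cells the median was 40.9%.

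**Figure D2:**
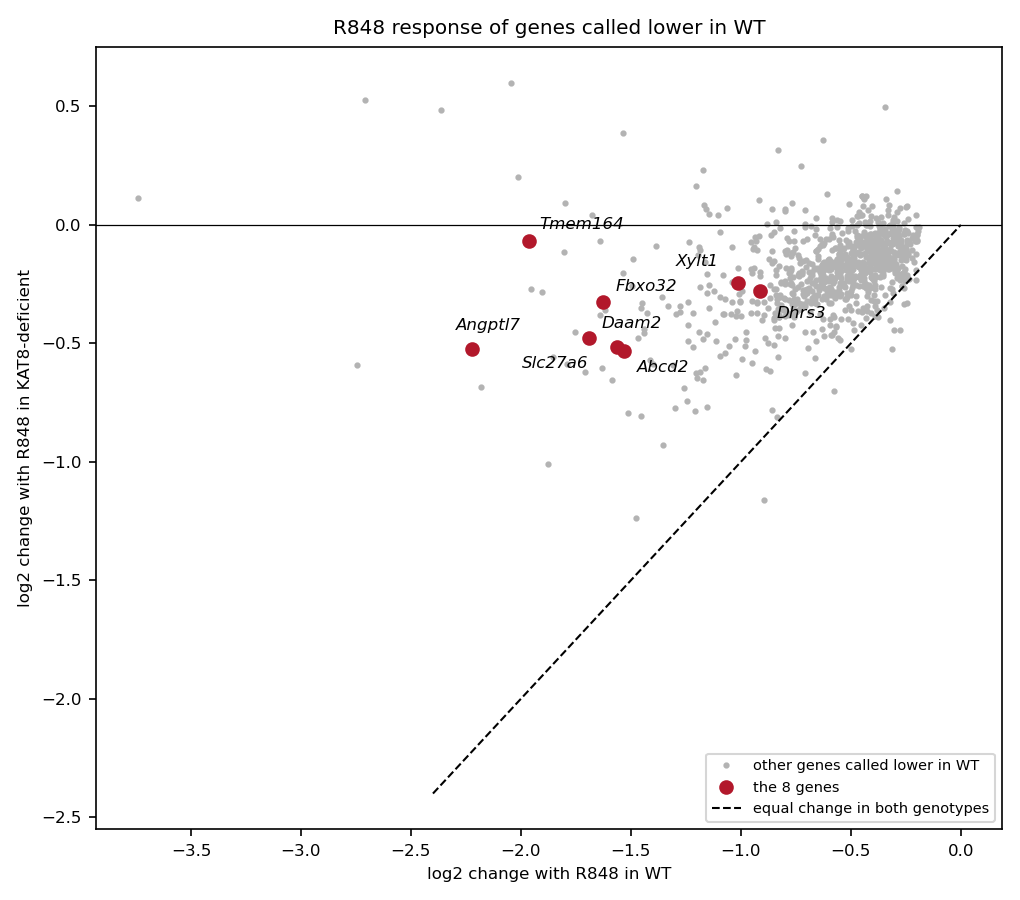
Log2 change with R848 in WT (horizontal axis) and KAT8-deficient cells (vertical axis) for the genes called lower in WT cells; grey points are other genes, red points the 8 genes, and the dashed line marks equal change. Of the 941 points, 927 lie above the dashed line, and Tmem164, at -1.96 and -0.07, lies by the line of no change in KAT8-deficient cells.

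The rule carries no numeric limit, so its edge can be shown only by neighbours. Among the named genes with at least 5 CPM that were called lower in WT cells, Angptl7 was place 1 by size, Tmem164 place 3 and Daam2, Fbxo32, Slc27a6 and Abcd2 were places 6 to 9, while Xylt1 was place 48 and Dhrs3 place 74. Genes outside the set but with falls of like size were Socs6 at -2.05 (SE 0.53), Lrrc14b at -1.79 (SE 0.19), Rasgrp3 at -1.71 (SE 0.25) and Gpr183 at -1.51 (SE 0.20). Their KAT8-deficient changes were 0.60 (SE 0.50) for Socs6, -0.59 (SE 0.17) for Lrrc14b, -0.62 (SE 0.22) for Rasgrp3 and -0.79 (SE 0.18) for Gpr183. Just beyond them stood Cytip at -1.45 (SE 0.16), Ripor3 at -1.44 (SE 0.28), Tcp11l2 at -1.43 (SE 0.18), the cholesterol exporter gene Abcg1 at -1.40 (SE 0.094) and Fam84a at -1.39 (SE 0.21). By the difference between responses, Daglb at 0.70 (SE 0.099), which makes the endocannabinoid 2-arachidonoylglycerol, lay outside the set beside Dhrs3 and Xylt1.

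Genotype differences under R848 and without it use the libraries that chose the genes and are therefore also descriptions. Under R848 all 8 were higher in KAT8-deficient than in WT libraries with no overlap (29.2% of tested genes were). By edgeR 7 of them were called higher, all but Slc27a6, where 8.14% of tested genes were called higher. The KAT8-deficient level was 3.95 times the WT level for Angptl7, 3.22 times for Tmem164 and 1.17 times for Slc27a6, with a median of 1.82 over the 8. Without R848 the differences went both ways. Daam2 was higher in KAT8-deficient cells, at 164% of WT and a log2 difference of 0.72 (SE 0.13), and Slc27a6 lower. By edgeR these and no others of the 8 were called, where 2.91% of tested genes were called higher and 1.36% lower. The Daam2 call was lost on leaving out any of the 4 untreated libraries, and the Slc27a6 call without either KAT8-deficient untreated library or without WT untreated replicate 2. Under R848 the call of Abcd2 was lost without any of the 4 R848 libraries. Untreated Tmem164 and Fbxo32 were at -0.21 (SE 0.063) and -0.25 (SE 0.076), Abcd2 at -0.35 (SE 0.13), Xylt1 at -0.15 (SE 0.064), Dhrs3 at 0.02 (SE 0.057) and Angptl7 at 0.28 (SE 0.25).

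**Figure D3:**
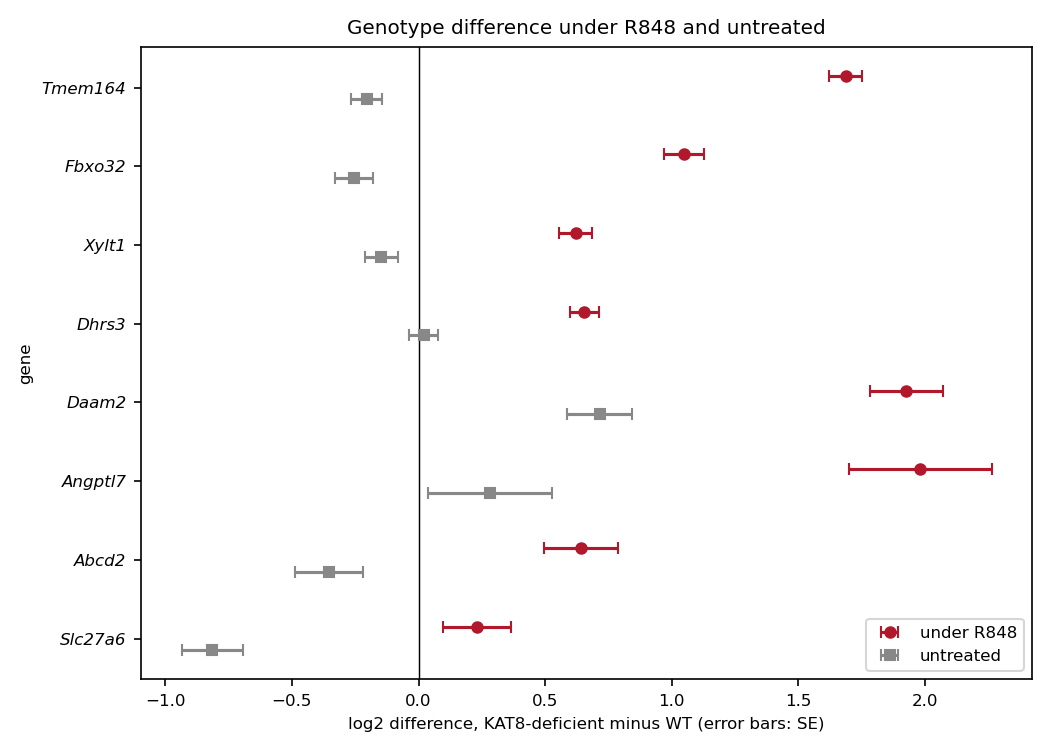
Log2 difference between genotypes (KAT8-deficient minus WT, horizontal axis) for each gene, under R848 (red circles) and untreated (grey squares), with SE as error bars. Under R848 all 8 lie right of 0, from 0.23 for Slc27a6 to 1.98 for Angptl7; untreated, Daam2 lies at 0.72 and Slc27a6 at -0.81.

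The genotype difference averaged over R848 and untreated libraries is the contrast whose error is independent of the R848 effect and of the difference in response. It was 1.32 (SE 0.097, edgeR adjusted p = 0.00013) for Daam2, higher in 4 of 4 KAT8-deficient libraries than in any WT library. It was 1.13 (SE 0.19, edgeR adjusted p = 0.00423) for Angptl7 and 0.74 (SE 0.045, edgeR adjusted p = 6.9e-05) for Tmem164. Fbxo32 was at 0.40 (SE 0.054), Dhrs3 at 0.34 (SE 0.040) and Xylt1 at 0.24 (SE 0.046), each past the threshold. Abcd2, at 0.15 (SE 0.099, edgeR adjusted p = 0.348), and Slc27a6, at -0.29 (SE 0.091, edgeR adjusted p = 0.0572), did not pass. In all, 6 of 8 were higher, where 11.0% of tested genes were. This average equals the untreated difference plus 0.5 times the difference in response, and that difference in response chose the genes. Nothing is therefore read from these calls, their p-values or their count. The untreated difference had the opposite sign for Tmem164 (-0.21), Fbxo32 (-0.25) and Xylt1 (-0.15), and the same sign for Daam2, Angptl7 and Dhrs3. The 6 calls held in 13 of 13 alternative analyses, while Slc27a6 passed in 1, without WT untreated replicate 1 (edgeR adjusted p = 0.0305).

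Markers of other cell types moved with genotype and treatment. The summed level of the 12 fibroblast and stromal markers was 4388 to 4437 CPM in KAT8-deficient R848, 4827 to 5047 CPM in KAT8-deficient untreated, 3033 to 3243 CPM in WT R848 and 3500 to 4072 CPM in WT untreated libraries. With R848, 4 of the 12 fell and 1 rose in WT cells (median -0.30), where 6.7% of tested genes were called lower and 6.94% higher. In KAT8-deficient cells edgeR called 0 of the 12 (median -0.15), with 4 lower at an unadjusted p under 0.05 and 1 lower by DESeq2. Averaged over treatments, 9 of 12 were higher in KAT8-deficient cells (median 0.44), where 11.0% of tested genes were. Without WT R848 replicate 1 or 2, or WT untreated replicate 2, edgeR called 1 of the 12 in WT cells with R848. Smooth muscle and pericyte markers summed to 396 to 406 CPM in KAT8-deficient R848, 527 to 593 CPM in KAT8-deficient untreated, 303 to 312 CPM in WT R848 and 374 to 390 CPM in WT untreated libraries. Under R848, 2 of 4 tested were called lower in KAT8-deficient cells, where 0.135% of tested genes were. In WT cells 3 of 4 were, where 6.7% of tested genes were. The WT count was 0 without WT R848 replicate 1 or WT untreated replicate 2, and 1 without WT R848 replicate 2. The KAT8-deficient count, of Acta2 and Tagln, was 0 without either R848 library of either genotype or without KAT8-deficient untreated replicate 1, and 1 without any of the other 3 libraries. Ly6g of neutrophils, Ibsp of osteoblasts and Plin1 and Cidec of adipocytes were at 0 counts in all libraries. Lists of endothelial, neutrophil, osteoblast and lymphocyte markers summed to at most 40.01, 7.73, 20.9 and 2.03 CPM. Adipocyte markers summed to 1738 to 1795 CPM in KAT8-deficient and 1293 to 1584 CPM in WT libraries, nearly all of it Lpl, which macrophages express. The part of other cells in the levels of the 8 genes was not tested.

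Across the 8 libraries the genes most like Tmem164, by Pearson's r of log2(CPM + 0.5) over 10117 genes with a mean of at least 5 CPM, were Chaf1a (0.987), Slc29a3 (0.985), Syne1 (0.978), Xdh (0.977) and Rftn1 (0.975). Their WT changes were smaller than that of Tmem164, at -0.41, -0.64, -0.55, -0.59 and -0.28, and their KAT8-deficient changes were -0.05, -0.06, -0.06, -0.15 and -0.04. Chaf1a encodes a histone chaperone subunit, Slc29a3 a lysosomal nucleoside transporter, Syne1 a nuclear envelope protein, Xdh xanthine dehydrogenase and Rftn1 a lipid raft protein. Among the 5 nearest to Dhrs3 were Lpxn (0.998), Cpt1a (0.998), the carnitine palmitoyltransferase of mitochondrial fatty acid import, and Xdh (0.996). Nearest to Fbxo32 were Fam168a (0.997), Gpr157 (0.994), Aph1c (0.993), Cd93 (0.992) and Mxi1 (0.991), and nearest to Xylt1 were Fzd7 (0.994), Il6ra (0.993), Cd93 (0.992), Cttnbp2nl (0.991) and Cnr2 (0.991). The 4 group means dominate such values, and libraries are shared between genes.

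Daam2 was most like Adssl1 (0.995), Usf1 (0.995), Tmem106a (0.994), the Wnt ligand gene Wnt4 (0.994) and Capn2 (0.993), and Angptl7 most like Cdk20 (0.997), Pitpnc1 (0.996), Mycn (0.993), Rgs2 (0.992) and Tmem154 (0.989). Abcd2 was most like Fabp7 (0.984), a fatty acid binding protein gene, Fli1 (0.980), Adgre5 (0.979), Mettl7a1 (0.978) and Cd28 (0.977). Slc27a6 was most like Bhlhe40 (0.990), Pwwp2b (0.983), Acox3 (0.980), a peroxisomal acyl-CoA oxidase gene, Sgsm2 (0.979) and Nfil3 (0.978). Among the 28 pairs of the 8 genes, r was highest for Fbxo32 with Xylt1 (0.989) and lowest for Daam2 with Slc27a6 (0.473), the genes whose untreated levels differed in opposite directions between genotypes.

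Relatives of the 8 genes were read per kilobase of exon (CPM per kb), the scale on which genes can be compared. Tmem164 was at 26.3 CPM per kb in KAT8-deficient R848, 27.5 in KAT8-deficient untreated, 8.15 in WT R848 and 31.8 in WT untreated cells. Its relative Aig1, a lipid hydrolase gene, was at 5.98, 5.50, 5.91 and 7.01 CPM per kb in the same order of groups. The WT change of Aig1 was -0.25 (SE 0.076, edgeR adjusted p = 0.0651). Adtrp, the other relative, had 5 counts in all 8 libraries. Trim63 (MuRF1), the muscle ubiquitin ligase often measured beside Fbxo32, had 69 counts in all, against 12418 for Fbxo32.

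Paralogues differed from the member in direction in 2 families. Xylt2 was at 13.0, 12.5, 13.5 and 10.3 CPM per kb in KAT8-deficient R848, KAT8-deficient untreated, WT R848 and WT untreated cells, and Xylt1 at 10.8, 12.8, 6.99 and 14.1 CPM per kb. Xylt2 rose in WT cells, by 0.39 (SE 0.096, edgeR adjusted p = 0.0296), a call lost on leaving out any of 4 libraries (KAT8-deficient untreated replicate 1, WT R848 replicate 1 or 2, WT untreated replicate 1). Daam1 rose too, by 0.69 (SE 0.11, edgeR adjusted p = 0.00324), with 9.54 CPM per kb in WT R848 and 5.90 in WT untreated cells, where Daam2 had 0.554 and 1.79 CPM per kb. Dhrs9, a retinol dehydrogenase gene, moved as Dhrs3 did and fell by 0.61 (SE 0.076, edgeR adjusted p = 0.00117) in WT cells. Its KAT8-deficient change was -0.28 (SE 0.075, edgeR adjusted p = 0.157). Dhrs3 remained the more abundant of the pair, at 33.2 to 63.4 CPM per kb over the groups, against 14.5 to 27.6 CPM per kb for Dhrs9.

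Among the relatives of Abcd2, Abcd4 fell by 0.41 (SE 0.096, edgeR adjusted p = 0.0245) in WT cells, and the peroxisomal transporter gene Abcd3 was at 0.08 (SE 0.073, edgeR adjusted p = 0.533). The Abcd4 call was lost without either WT R848 library or without WT untreated replicate 2. Abcd2 was the scarcer peroxisomal transporter of the pair, at 1.26 to 3.63 CPM per kb over the groups, against 11.1 to 12.0 CPM per kb for Abcd3. Of the fatty acid transport proteins, Slc27a1 was most abundant, at 22.4 to 34.5 CPM per kb, and fell by 0.34 (SE 0.059, edgeR adjusted p = 0.00677) in WT cells. Slc27a4 was at 11.7 to 12.9 CPM per kb with a WT change of -0.04 (SE 0.079, edgeR adjusted p = 0.771), and Slc27a6 was at 2.49 to 7.36 CPM per kb. Slc27a3 was at 0.519 to 0.654 CPM per kb, Slc27a2 had 0 counts and Slc27a5 had 2. Of the angiopoietin-like genes, Angptl2, Angptl4 and Angptl6 were tested and had WT changes of -0.18 (SE 0.13), 0.21 (SE 0.19) and 0.28 (SE 0.28), with edgeR adjusted p-values of 0.423, 0.518 and 0.567. Angptl7 was above these 3 except in WT R848 cells, where its 2.55 CPM per kb was below Angptl2, at 3.12, and Angptl4, at 2.79.

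**Figure D4:**
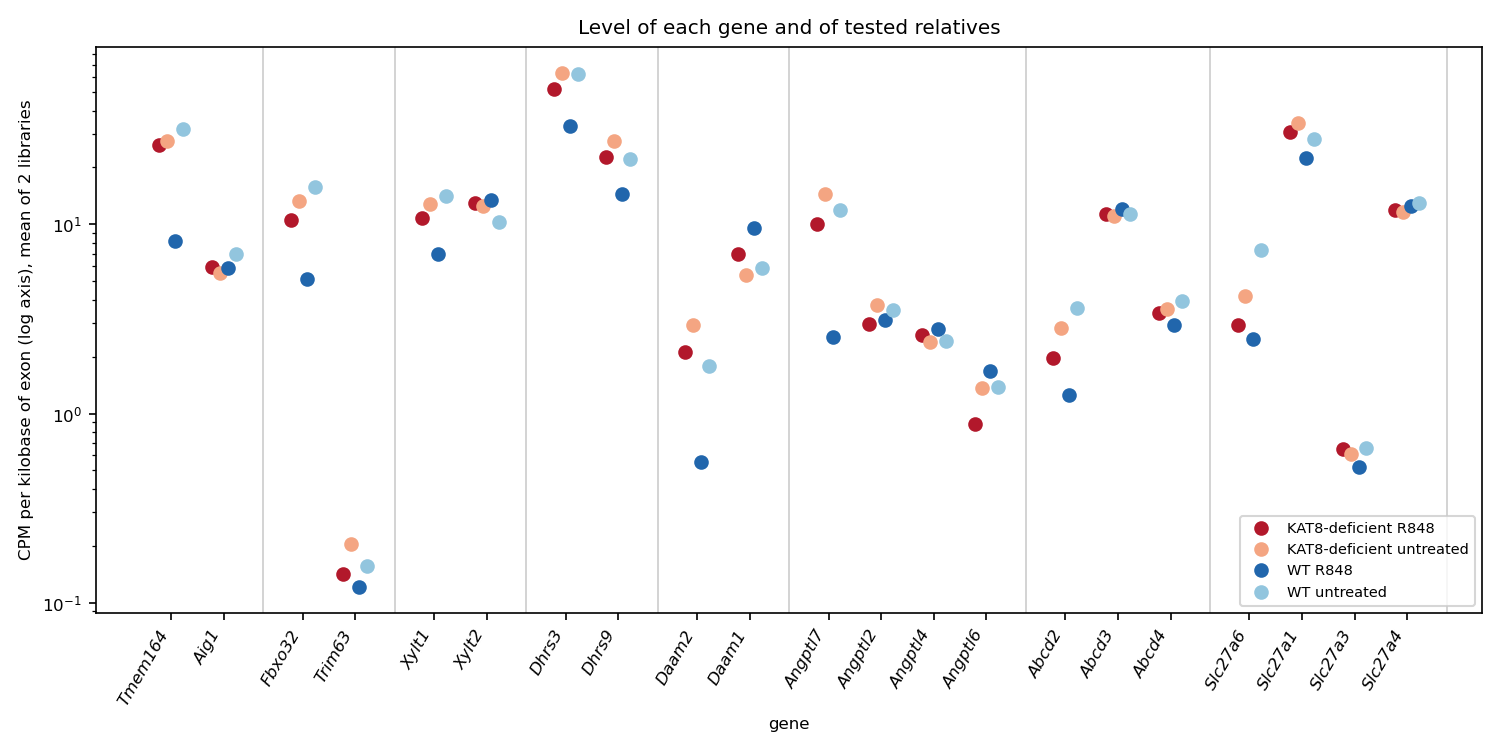
Mean level over 2 libraries in CPM per kilobase of exon (vertical log axis) of each of the 8 genes and tested relatives (horizontal axis, families divided by grey lines), in KAT8-deficient R848, KAT8-deficient untreated, WT R848 and WT untreated cells. The WT R848 point lies lowest for each of the 8 genes, as for Tmem164 at 8.15 CPM per kb, but highest for Daam1 at 9.54 and Xylt2 at 13.5 CPM per kb.

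The pathways around the 8 genes did not move as one. Counts of other pathway genes called by edgeR in WT cells are read against 6.94% of tested genes higher and 6.7% lower, and medians against -0.0024 over all tested genes. Of 19 peroxisomal beta-oxidation genes, 0 rose and 3 fell in WT cells (median -0.03), among them Acox3 by 0.49 (SE 0.060) and Hsd17b4, a multifunctional beta-oxidation enzyme, by 0.20 (SE 0.056), a call that held in 2 of 13 alternative analyses. At an unadjusted p under 0.05, 1 rose, and by DESeq2 0. Of 11 acyl-CoA synthetase and fatty acid transport genes, 3 rose and 2 fell (median -0.04). Fabp3, a fatty acid binding protein gene, rose by 1.41 (SE 0.11) and Acsl5 by 0.36 (SE 0.060), while Fabp4 fell by 0.63 (SE 0.10). Acsl4, an arachidonate-preferring synthetase linked to ferroptosis, also rose, by 0.34 (SE 0.060).

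Of 14 ether lipid and ferroptosis genes, 2 rose and 0 fell in WT cells (median 0.10), with 2 lower at an unadjusted p under 0.05 and 0 by DESeq2. Slc7a11, the cystine transporter, rose by 2.19 (SE 0.18) and the transferrin receptor gene Tfrc by 0.25 (SE 0.065), a call kept in 6 of 13 alternatives. Of 20 retinoid genes, 0 rose and 3 fell (median -0.22): Dhrs9, the retinoic acid receptor gene Rara by 0.58 (SE 0.11), and its partner Rxra by 0.40 (SE 0.11), the last kept in 6 of 13 alternatives. At an unadjusted p under 0.05, 2 retinoid genes rose and 8 fell, and DESeq2 called 0 and 3. Of 15 proteoglycan genes, 2 rose and 1 fell (median 0.04). Ext1, a heparan sulfate polymerase, rose by 0.41 (SE 0.065), as did Xylt2, and Csgalnact1, which starts chondroitin sulfate chains, fell by 1.24 (SE 0.28), in 8 of 13 alternatives.

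Of 22 FOXO genes and targets other than Fbxo32, 0 rose and 7 fell in WT cells (median -0.26), with 1 higher at an unadjusted p under 0.05 and 0 by DESeq2. Foxo3 itself fell by 0.60 (SE 0.076) and Sesn1, a stress-induced sestrin, by 0.65 (SE 0.083), each in 13 of 13 alternatives. Irs2, an insulin receptor substrate, fell by 0.56 (SE 0.11) and Tsc22d3 (GILZ) by 0.59 (SE 0.13). Gabarapl1 fell by 0.24 (SE 0.059), Ccng2 by 0.43 (SE 0.097) and Klf15 by 1.44 (SE 0.40, edgeR adjusted p = 0.049). In KAT8-deficient cells edgeR called 0 of the 22, with 1 lower at an unadjusted p under 0.05 and 0 by DESeq2 (median -0.07). Of 20 glucocorticoid targets outside the 8, 3 rose and 2 fell in WT cells (median -0.05). Cebpd rose by 1.18 (SE 0.10), Sgk1 by 0.25 (SE 0.061) and Lox by 0.26 (SE 0.068), and Tsc22d3 and Klf15, which are on both lists, fell.

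Of 20 formin and planar polarity genes, 3 rose and 2 fell in WT cells (median -0.08). Daam1, Diaph2 by 0.40 (SE 0.091) and Fmnl2 by 0.38 (SE 0.097) rose, and Prickle1 fell by 0.72 (SE 0.17) and Fmn1 by 0.27 (SE 0.073). Of 6 angiopoietin and angiopoietin-like genes, edgeR called 0 (median -0.16), as did DESeq2, and 0 passed an unadjusted p under 0.05. Over the 143 genes of these lists together, 13 rose and 18 fell in WT cells. In KAT8-deficient cells edgeR called 1 of the 143, with 12 higher and 12 lower at an unadjusted p under 0.05, and DESeq2 called 2 higher and 1 lower. That gene was Chpf2, of chondroitin synthesis, which fell by 2.11 (SE 0.33, edgeR adjusted p = 0.0398) and kept the call in 5 of 13 alternatives. Its untreated replicates were uneven, at 70.3 and 128 CPM in KAT8-deficient and 118 and 62.5 CPM in WT cells. Averaged over treatments, 6 of the 20 retinoid genes and 4 of the 22 FOXO genes were higher in KAT8-deficient cells and 0 lower, where 11.0% of tested genes were higher and 7.56% lower. At an unadjusted p under 0.05, 2 retinoid genes and 1 FOXO gene were lower, and by DESeq2 0. The other lists differed. By edgeR, 0 ether lipid and ferroptosis genes were higher and 3 lower, and 1 acyl-CoA synthetase and transport gene was higher and 3 lower. For peroxisomal and for proteoglycan genes it was 1 higher and 2 lower, for glucocorticoid targets 6 and 2, for formin and polarity genes 5 and 2, and for angiopoietin-like genes 0 and 0. Over the 143 genes together, 22 were higher and 14 lower.

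Many of these WT calls rested on single libraries. Leaving out 1 library at a time, the number of FOXO genes called in WT cells ran from 2 to 7, of glucocorticoid targets from 1 to 6, of formin and polarity genes from 1 to 5, of acyl-CoA synthetase and transport genes from 3 to 6, and of retinoid and proteoglycan genes from 1 to 3 each. The lowest count of each of these lists came without WT R848 replicate 1, and the FOXO, retinoid, glucocorticoid and formin counts were as low without WT untreated replicate 2. Without WT R848 replicate 2 the counts were 3 for FOXO genes, 2 for glucocorticoid targets and 1 each for formin and proteoglycan genes. The glucocorticoid count was 3 without KAT8-deficient untreated replicate 1, and the formin count 3 without WT untreated replicate 1. The ether lipid count fell to 1 without any of 7 libraries, all but WT untreated replicate 1. The calls of Acox3, Slc27a1, Fabp3, Fabp4, Slc7a11, Dhrs9, Ext1, Daam1, Foxo3, Sesn1 and Cebpd held in 13 of 13 alternatives. Acsl4 and Acsl5 lost theirs without WT R848 replicate 1 alone (edgeR adjusted p = 0.0657 and 0.0524), and Klf15 kept its call in 3 of 13.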

How the data were processed

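Gene counts of 8 mouse macrophage libraries were used as deposited: whole-number counts per Ensembl gene, not normalised, per the file headers and the values. Per the submitters' processing notes, HISAT2, StringTie 1.3.0, edgeR and the mm10 build were used, and the notes give no role for each. The annotation behind the counts and any use of strand in counting were not stated in those notes. Symbols, spans and exon lengths were taken from GENCODE M21 (GRCm38) by Ensembl identifier, and 401 genes had no match.

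The counts were analysed in R 4.3.3 with edgeR 4.0.16: filterByExpr kept 14040 genes, TMM scaling gave CPM, and a quasi-likelihood model with 1 mean per group was fitted to all 8 libraries. The common biological coefficient of variation was 0.0956. P-values were adjusted by Benjamini-Hochberg over all tested genes, with a threshold of 0.05. Standard errors are the log2 change divided by the square root of its F. Each replicate pair differed beyond sampling noise (chi-square per degree of freedom 7.65 to 12.4), so none was merged. The model was tested on simulated data.

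The members and gene lists were chosen with earlier results of these data known. Named genes are the 8, Kat8, named neighbours among the 15 largest WT falls with at least 5 CPM, the 5 most alike genes of each, up to 4 genes per list, and relatives. The list genes are those with the smallest p in the WT R848 response or in the difference between responses. Daglb, Mtor, Chpf2, Lyz2, Lpl, Acta2, Tagln and list genes beyond 4 per list were named after their values were seen. A few genes that this rule would name are not reported here. Alternatives were DESeq2 1.42.0, its size factors, no filter, a replicate block, each library left out, and robust estimation of the spread (added after seeing the data). The detection floor covers counting error only.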

Additional observations from a re-analysis of the deposited data

Results flagged for a closer look

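The difference between the R848 responses (KAT8-deficient minus WT) stood out for 6 of the genes named, leaving aside those named after their values were seen. Daglb, one of those left aside, was also called higher by edgeR, at 0.70. For Tmem164, at 1.89 on the log2 scale, Fbxo32, at 1.3, Xylt1, at 0.77, and Dhrs3, at 0.63, the difference is a description. The rule chose these genes for a weaker or absent fall in KAT8-deficient cells. Fabp3 and Cebpd, which the rule did not choose, rose in WT cells, and their difference was -1.09 for each, a smaller rise in KAT8-deficient cells. Both passed edgeR's test of the difference, adjusted over all tested genes, where 24 of the 14040 tested genes were called lower. List genes were named for the smallest p in the WT response or in this difference. That both passed therefore follows in part from how they were named. The call was kept in 6 of 13 alternative analyses for Fabp3 and in 5 of 13 for Cebpd.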

How the results depend on the processing

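The rule chose the 8 genes from their responses, so their calls restate that choice, and the counts given here show only how it depends on the processing. All 8 were called lower with R848 in WT cells in 13 of 13 alternatives. The difference in response was called in 13 of 13 for Tmem164 and Fbxo32, 8 for Xylt1, 7 for Dhrs3, 4 for Daam2 and 3 each for Angptl7, Abcd2 and Slc27a6. No called value changed sign. Counts of genes called by edgeR in KAT8-deficient cells with R848 and for the difference in response were 89 and 32. They became 274 and 245 without the filter, 238 and 231 by DESeq2's own test, and 158 and 148 with robust estimation of the spread, added after seeing the data. Leaving out 1 library at a time, the count ran from 858 to 1826 for WT cells with R848 (1916 with all), from 2 to 186 for KAT8-deficient cells, and from 6 to 208 for the difference in response. Genotype counts ran from 66 to 606 untreated (600 with all), from 784 to 1894 under R848 (1911) and from 1541 to 2247 averaged (2606). Several single libraries moved these counts by over 1.5 times. For WT cells the count was 858, 1044 and 1139 without WT R848 replicate 1, WT R848 replicate 2 and WT untreated replicate 2. For KAT8-deficient cells it was 186 and 40 without KAT8-deficient R848 replicates 1 and 2, 2 and 31 without KAT8-deficient untreated replicates 1 and 2, and 17 and 20 without WT R848 replicates 1 and 2. For the difference in response it was 208 without KAT8-deficient R848 replicate 2, 6 and 11 without KAT8-deficient untreated replicates 1 and 2, 11 without either WT R848 library, and 19 without WT untreated replicate 2. The untreated genotype count was 66 and 172 without KAT8-deficient untreated replicates 1 and 2, 341 and 391 without WT R848 replicates 1 and 2, and 165 and 228 without WT untreated replicates 1 and 2. Under R848, leaving out KAT8-deficient replicate 1 gave 976, and leaving out WT replicate 1 or 2 gave 784 or 1025. Averaged, it was 1599 without KAT8-deficient untreated replicate 1 and 1541 without WT R848 replicate 1. Same-numbered libraries did not deviate together over all tested genes (r from -0.06 to 0.048). Such values would miss small shared effects, so whether the numbers pair the libraries is not known. With the replicate block the counts were 1875 for WT cells, 73 for KAT8-deficient cells, 25 for the difference in response, and 531 untreated, 1871 under R848 and 2574 averaged between genotypes. The depth limits genes of a few counts, such as Adtrp and Trim63.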
